A study of Mus musculus with 12 samples.

Results

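The genes described here are 10 germline genes, *Dazl*, *Ddx4*, *Sycp3*, *Mael*, *Brdt*, *Tex101*, *Hormad1*, *Slc25a31*, *Tuba3a* and *Tuba3b*, chosen by name as a class that ESCs keep silent through DNA methylation of their promoters. All 10 were found among the 50978 rows of the deposited RNA-seq table. Their RNA was measured in 3 lines of E14 mouse embryonic stem cells (ESCs), all grown in medium with 15% serum and LIF, with 2 libraries per line. The first line was the parental ESCs. ESC + H/F-PRAMEL7WT carried HA/FLAG-tagged wild-type PRAMEL7, and ESC + H/F-PRAMEL7ΔN carried the same tagged protein without 50 amino acids at its N-terminus by the sample labels, in the part through which PRAMEL7 binds the ubiquitin ligase subunit CUL2. The text of the study gives a shorter deletion, and the difference was not resolved here. Both derived lines held the tagged construct, driven by the CAG promoter, at *Rosa26*, where Cas9 had cut. Single-cell clones had been grown under puromycin, so that an effect of the protein and a property of the clone cannot be told apart. The question was how each form of PRAMEL7 moved these genes relative to parental ESCs, and whether the 2 forms differed.

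Germline genes of this class have CpG-rich promoters that become methylated around implantation and stay methylated in somatic cells. DNMT1 copies the methylation after replication with the help of UHRF1, which recognises half-methylated DNA, and a Polycomb complex with E2F6, MGA, MAX, L3MBTL2 and PCGF6 holds many of the same promoters silent in ESCs. Loss of either layer is known to let such genes be transcribed outside the germline, where *Dazl* is often read as a sentinel. No DNA methylation was measured in the files used here, so the label could be checked only at the level of RNA. By that measure it did not hold equally for all members. *Tuba3a* and *Mael* were clearly transcribed in parental ESCs, and only *Tex101* stayed under 1 CPM (reads per gene scaled to a common library total) in every library.

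The promoters of these genes were described by their sequence. RefSeq windows on GRCm38.p6, reaching from 250 bases before to 50 bases after the start of transcription, were found for all 10 genes. They held 12 to 38 CpG sites, with a median of 22.5, against a median of 7 over all 32851 windows. The letters TCCCGC on either strand, the core to which E2F proteins bind, were present in the windows of 7 genes and in 19.98% of all windows. The letters CACGTG, an E-box to which MAX and its partners bind, were present in 6 genes and in 7.15% of all windows. These motifs share at most 1 base where they meet. Both stood in 5 of the genes and in 1.994% of all windows, and neither stood in *Dazl* or *Tex101*. Each motif contains a CpG, and the windows of these genes held more CpG sites than the median window. The shares over all windows were not matched for this, so no excess of either motif can be read from them. A match of letters is a description of the sequence and does not show binding. The upstream stretches of 5 genes are printed 5′ to 3′ with every CpG in capitals, ending at the first base that the annotation places in an exon or, for *Tuba3a*, at the RefSeq start. They were chosen to show genes that changed (*Tuba3a*, *Brdt*, *Mael*) and usual readouts of the class (*Dazl*, *Sycp3*). *Tuba3a* lies at chr6:125286082-125286331 on the minus strand, *Brdt* at chr5:107330944-107331158 on the plus strand, *Mael* at chr1:166238748-166238994 on the minus strand, *Dazl* at chr17:50293637-50293870 on the minus strand and *Sycp3* at chr10:88459337-88459568 on the plus strand.
Tuba3a: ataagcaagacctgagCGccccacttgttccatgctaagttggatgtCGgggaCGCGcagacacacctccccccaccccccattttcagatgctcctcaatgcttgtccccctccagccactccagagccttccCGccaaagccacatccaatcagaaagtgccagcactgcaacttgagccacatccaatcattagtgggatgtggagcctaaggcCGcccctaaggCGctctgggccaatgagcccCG
Brdt: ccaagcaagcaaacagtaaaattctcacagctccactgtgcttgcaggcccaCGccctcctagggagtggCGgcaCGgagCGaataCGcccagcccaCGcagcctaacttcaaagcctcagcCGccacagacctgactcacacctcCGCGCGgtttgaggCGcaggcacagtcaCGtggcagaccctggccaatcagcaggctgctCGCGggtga
Mael: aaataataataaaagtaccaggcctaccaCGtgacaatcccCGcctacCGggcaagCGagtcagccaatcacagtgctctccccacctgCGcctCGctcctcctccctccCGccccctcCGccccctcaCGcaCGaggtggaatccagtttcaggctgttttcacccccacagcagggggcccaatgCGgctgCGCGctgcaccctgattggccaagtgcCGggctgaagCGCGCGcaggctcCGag
Dazl: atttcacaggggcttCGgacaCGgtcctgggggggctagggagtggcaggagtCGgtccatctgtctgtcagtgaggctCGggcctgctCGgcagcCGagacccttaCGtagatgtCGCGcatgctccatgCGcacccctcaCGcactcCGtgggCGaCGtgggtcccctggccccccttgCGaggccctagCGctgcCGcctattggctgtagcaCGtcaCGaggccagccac
Sycp3: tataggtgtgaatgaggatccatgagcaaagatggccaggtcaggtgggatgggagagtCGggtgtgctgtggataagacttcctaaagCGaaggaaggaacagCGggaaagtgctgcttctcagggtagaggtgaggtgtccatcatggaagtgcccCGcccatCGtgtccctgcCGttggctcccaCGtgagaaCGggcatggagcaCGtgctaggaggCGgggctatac

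The printed *Tuba3a* stretch was the poorest in CpG, with 8 sites in 250 bases, and that of *Dazl* the richest, with 19 in 234. *Tuba3a*, the gene of the class with the highest RNA level, also had the fewest CpG sites among the 10 windows. The E2F core letters stood 119 bases before the start of *Tuba3a* and 143 bases before that of *Mael*. *Mael* also held an E-box 223 bases before its start and a further match of the E2F core letters past it. *Brdt* had no such letters and a single E-box, 78 bases before its start. In *Sycp3* the E2F core letters stood 147 bases upstream, with E-boxes at 64 and 43 bases.

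The values behind all comparisons are RPKM that the authors deposited, converted to CPM of reads on genes. The libraries held 18242779 to 19842822 reads on genes. Differences were tested with limma on log2(CPM + 1) over 12914 genes, those that exceeded 1 CPM in 2 or more libraries, with the 3 lines in a single fit. Adjusted p-values are those of limma with Benjamini-Hochberg adjustment over these genes. A gene passed at an adjusted p under 0.05, and log2 fold changes are given on this scale, which understates changes of genes near 1 CPM. Log2 values of the libraries of a line correlated at 0.990 (parental), 0.997 (wild-type) and 0.995 (ΔN). *Pramel7* was at 0.258 and 0.217 CPM in parental ESCs, 51.2 and 46.2 CPM in ESC + H/F-PRAMEL7WT and 398 and 431 CPM in ESC + H/F-PRAMEL7ΔN. Both derived lines thus expressed *Pramel7*, with 8.51 times more RNA in the ΔN line. The values are per gene, so which line carries the truncated form was not checked. The form of the protein and its RNA level differ together between the derived lines and cannot be told apart in any comparison below.

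The class did not move as a unit. Of the 9 genes tested, 1 rose (*Tuba3a*) and 1 fell (*Brdt*) in the wild-type line against parental ESCs, where 8.71% of all tested genes were called higher and 16.3% lower (25% in all). In the ΔN line, 4 fell (*Tuba3a*, *Tuba3b*, *Brdt* and *Mael*) against 13.6% of all tested genes called lower (19.9% called either way). None was called higher by limma there, against 6.25% of all genes, and the count was also 0 with voom on whole reads. At an unadjusted p under 0.05 the count was 0 as well. By that limit it was 2 with median-ratio scaling, and 1 each with RPKM and without the mean-variance trend. The 2 comparisons share the parental libraries. Over all tested genes the wild-type line had 1125 calls upward and 2109 downward, which became 1752 and 1451 with median-ratio scaling, and the ΔN line had 807 and 1759, which became 1166 and 1336. Between the derived lines directly, 5 were higher in the wild-type line (*Dazl*, *Mael*, *Slc25a31*, *Tuba3a* and *Tuba3b*) and 1 was lower (*Ddx4*), against 10.9% and 9.44% of all tested genes (20.4% together). *Brdt* passed the filter on low values only through the parental libraries and *Tuba3b* and *Slc25a31* only through the parental and wild-type ones, so a difference was built into their presence among the tested genes. The 9 genes had a median log2 fold change of 0.28 in the wild-type line against -0.08 over all tested genes, and of -0.28 in the ΔN line against -0.06.

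**Figure D1:**
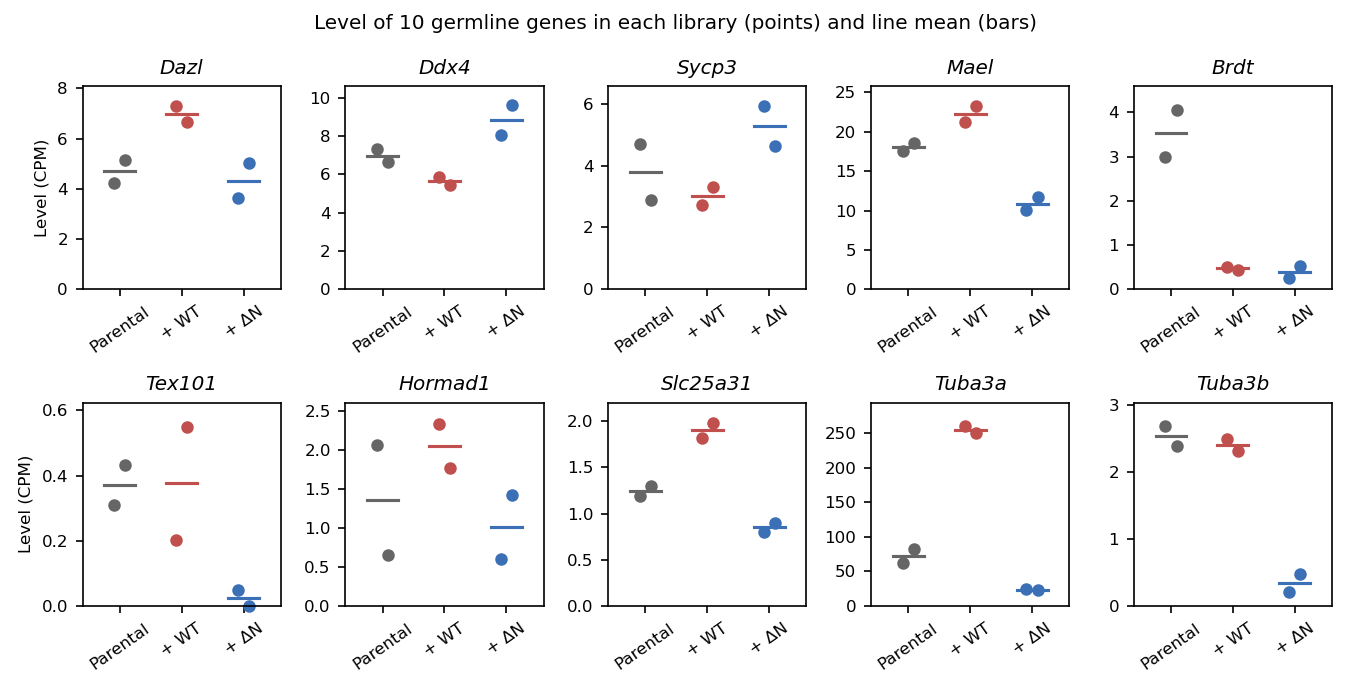
Level of each of the 10 genes in CPM (linear axes from 0, a separate scale per gene) in the 2 libraries of parental ESCs, ESC + H/F-PRAMEL7WT and ESC + H/F-PRAMEL7ΔN. Points are libraries and bars are line means. *Tuba3a* was highest in the wild-type line and lowest in the ΔN line, and *Brdt* was low in both derived lines.

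In parental ESCs the levels spanned a wide range when expressed per kilobase of exon. *Tuba3a* stood first at 47.8 CPM per kilobase, followed by *Mael* at 10.4. *Sycp3* at 2.99 and *Ddx4* at 2.31 overlapped between their libraries. So did each neighbouring pair in the run of *Tuba3b* at 1.43, *Dazl* at 1.23, *Hormad1* at 0.785, *Brdt* at 0.690 and *Slc25a31* at 0.585 CPM per kilobase. *Tex101* was last, at 0.224. These are bulk cultures, in which a few cells with high levels and many with low ones cannot be told apart.

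*Tuba3a* and *Tuba3b* encode alpha-tubulins of the testis. They showed the largest changes between the derived lines. *Tuba3a* (ENSMUSG00000067702.5, chr6:125278274-125286042) was at 62.2 and 82.1 CPM in parental ESCs, 261 and 250 CPM in the wild-type line, and 23.9 and 23.0 CPM in the ΔN line. The 3 lines did not overlap. The gene rose 3.54-fold with the wild-type protein, with a log2 fold change of 1.82 ± 0.13 (SE) and an adjusted p of 1.12e-04 by limma. It fell 3.08-fold in the ΔN line, with a log2 fold change of -1.57 ± 0.13 and an adjusted p of 8.06e-05. It was the only tested gene of the class that passed in both lines with opposite signs. The direct difference was 3.39 on the log2 scale, with a 95% interval of 3.11 to 3.67 and an adjusted p of 6.12e-07. These 3 calls were made under every alternative setting.

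*Tuba3b* (ENSMUSG00000067338.6, chr6:145615757-145621479) behaved differently. It was at 2.68 and 2.39 CPM in parental ESCs and at 2.48 and 2.31 CPM in the wild-type line, but at 0.201 and 0.475 CPM in the ΔN line, on 4 and 9 reads. The parental and wild-type libraries overlapped, and both lay above the ΔN libraries. Against parental ESCs the log2 fold change was -0.06 with the wild-type protein (95% interval -0.47 to 0.35, adjusted p of 0.845), which turned to 0.01 with median-ratio scaling. The fall in the ΔN line was significant, by 1.41 ± 0.18 on the log2 scale, with an adjusted p of 0.00102.

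The coding sequences of both tubulins are 1353 bases long, differ at 41 bases and are 97.0% identical, so that reads could be assigned to the wrong copy. Of the 1410 windows of 100 bases in the *Tuba3a* transcript, 174 (12.3%) also occur in *Tuba3b*. How reads that fit both copies were counted is not given in the sources used here. *Tuba3b* made up 4.13% and 2.83% of the reads of the pair in parental ESCs, 0.942% and 0.917% in the wild-type line, and 0.833% and 2.02% in the ΔN line. The values for *Tuba3b* are uncertain for this reason. Whether shared reads were dropped, which would lower the sum of the pair as well, was not tested. The summed level gave log2 fold changes of 1.79 with the wild-type protein and -1.60 in the ΔN line, close to those of *Tuba3a* alone. Upstream of their starts the copies were 63.6% identical over 275 alignment columns, yet the E2F core letters lie in a stretch in which 27 of 30 bases are shared. These stretches, with TCCCGC in capitals, lie at chr6:125286183-125286212 on the minus strand and chr6:145615845-145615874 on the plus strand.
Tuba3a: actccagagcctTCCCGCcaaagccacatc
Tuba3b: actccagagcctTCCCGCcaaatttacatc

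Both tubulins lie on chromosome 6, which also holds *Rosa26*, and the other genes of that chromosome were shifted as well. The median log2 fold change of the 602 other tested genes was -0.26 in the wild-type line and 0.25 in the ΔN line, and -0.40 between the derived lines. For the other 19 chromosomes the median between the derived lines ranged from -0.06 to 0.07. *Tuba3a* rose where the median of its chromosome was lower and fell where it was higher, and *Tuba3b* fell in the line in which the median was higher. Within 5 Mb of *Tuba3a*, 88 tested genes had a median of -0.20 in the wild-type line and 0.37 in the ΔN line, and the difference of *Tuba3a* from these medians was 2.02 and -1.94. Of these 88 genes, 6 were called higher and 19 lower in the wild-type line, and 41 higher and 4 lower in the ΔN line. The 6 included, named after their values were seen, *Ltbr* at 0.03 Mb (log2 fold change 1.04), *Scnn1a* at 0.04 Mb (1.13) and *Vwf* at 0.27 Mb (0.86). The 4 called lower in the ΔN line were *Tnfrsf1a* at 0.07 Mb (-0.86), *Dyrk4* (-1.40), *Dppa3* (-2.67) and *Clstn3* (-0.46). For *Tuba3b*, with 38 tested neighbours, the difference from the medians was 0.19 and -1.67. The part of the chromosome-wide shift and of these neighbours in the tubulin values was not tested. *Tuba3a* also lies within *4930417O13Rik*, a transcript on the opposite strand that was at 0.0502 to 0.440 CPM, and the library kit does not mark strand.

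**Figure D2:**
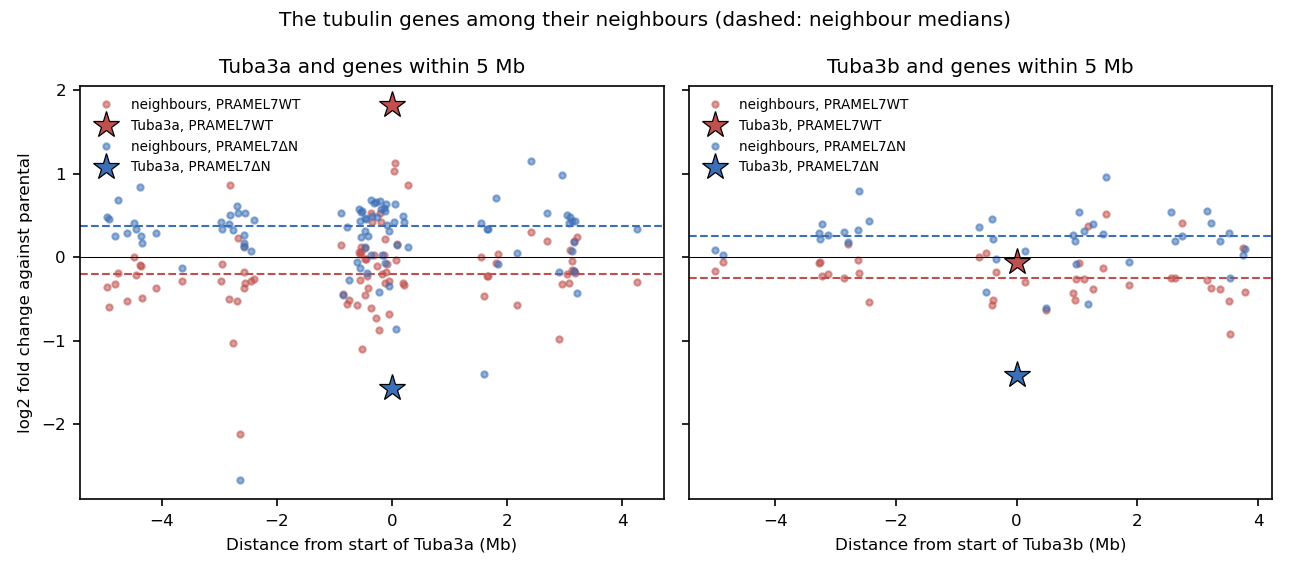
log2 fold change against parental ESCs (vertical axis) of each tested gene starting within 5 Mb of *Tuba3a* (left, 88 genes) and *Tuba3b* (right, 38 genes), by distance in Mb. Red marks ESC + H/F-PRAMEL7WT and blue ESC + H/F-PRAMEL7ΔN, stars are the tubulins and dashed lines the medians of the neighbours. *Tuba3a* at 1.82 and -1.57 lies outside the bulk of its neighbours on opposite sides.

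*Brdt* encodes a testis-specific member of the BET family, which reads acetylated histones and is needed for spermatid chromatin. *Brdt* (ENSMUSG00000029279.15, chr5:107331159-107387058) was at 2.99 and 4.07 CPM in parental ESCs. It was at 0.506 and 0.440 CPM in the wild-type line and at 0.251 and 0.528 CPM in the ΔN line. Both derived lines thus lay below the parental libraries and overlapped each other. *Brdt* fell 7.46-fold with the wild-type protein, by 1.61 ± 0.20 on the log2 scale (adjusted p of 0.00126), and 9.07-fold in the ΔN line, by 1.70 ± 0.20 (adjusted p of 6.55e-04). Because the gene was tested only through its parental libraries, a difference was built in by the filter. With no filter the adjusted p was 0.0122 in the wild-type line and 0.00768 in the ΔN line. The difference between the derived lines was 0.09 on the log2 scale, with a 95% interval of -0.36 to 0.54 and an adjusted p of 0.771, and its sign turned (-0.05) without the first ΔN library. The reads numbered 58 and 75 in parental ESCs and 5 to 10 in the derived libraries. The gene overlaps the processed pseudogene *Gm8152* on the opposite strand, whose reads were not separated. The 72 tested genes within 5 Mb had medians of -0.10 and -0.08 in the wild-type and ΔN lines.

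*Mael* encodes Maelstrom, a protein of the nuage in which piRNAs silence transposons. *Mael* (ENSMUSG00000040629.8, chr1:166201201-166238747) was at 17.6 and 18.6 CPM in parental ESCs, 21.2 and 23.2 CPM in the wild-type line and 10.0 and 11.7 CPM in the ΔN line. The 3 lines did not overlap, with the wild-type line highest and the ΔN line lowest, as for *Tuba3a*. The fall in the ΔN line, by 0.69 ± 0.13 on the log2 scale, passed with an adjusted p of 0.00607. It missed the threshold without the first ΔN library (adjusted p of 0.0692). With the wild-type protein the log2 fold change of 0.28 (95% interval -0.01 to 0.57) had an adjusted p of 0.139. The direct difference of 0.97 ± 0.13 passed with an adjusted p of 0.00114 and did so under every alternative.

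*Dazl* and *Ddx4* encode RNA-binding proteins of germ cells, a regulator of translation and the Vasa helicase of the nuage. They differed between the derived lines in opposite directions. *Dazl* (ENSMUSG00000010592.9, chr17:50279395-50293636) was at 4.24 and 5.17 CPM in parental ESCs, 7.31 and 6.68 CPM in the wild-type line and 3.62 and 5.03 CPM in the ΔN line. Both wild-type libraries were above all others, while parental and ΔN libraries overlapped. The log2 fold change with the wild-type protein was 0.49 ± 0.18 with an adjusted p of 0.0728, which became 0.0291 without the second parental library. The ΔN value was -0.11 (95% interval -0.51 to 0.30, adjusted p of 0.723). The derived lines differed by 0.60 ± 0.18 with an adjusted p of 0.0438, but this call was lost whichever of the 4 derived libraries was left out (adjusted p of 0.0699 to 0.240).

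*Ddx4* (ENSMUSG00000021758.14, chr13:112598333-112652475) was at 7.33 and 6.62 CPM in parental ESCs, 5.87 and 5.45 CPM in the wild-type line and 8.03 and 9.61 CPM in the ΔN line. The lines did not overlap and their order was the reverse of that of *Mael*. Neither derived line differed from parental ESCs by the test, with log2 fold changes of -0.26 (95% interval -0.60 to 0.09, adjusted p of 0.237) and 0.30 (-0.05 to 0.64, adjusted p of 0.213). The wild-type line was lower than the ΔN line by 0.56 ± 0.15 on the log2 scale, with an adjusted p of 0.0316. That call was lost whichever of the 4 derived libraries was left out (adjusted p of 0.0661 to 0.236).

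*Sycp3* and *Hormad1* encode proteins of the meiotic chromosome axis. Neither passed the test in any of the 3 comparisons with the 3 lines in a single fit. With only the compared lines fitted, both passed between the derived lines (adjusted p of 0.00703 for *Sycp3* and 0.0288 for *Hormad1*). *Sycp3* (ENSMUSG00000020059.9, chr10:88459569-88473236) was at 4.70 and 2.87 CPM in parental ESCs, 2.73 and 3.30 CPM in the wild-type line and 5.92 and 4.65 CPM in the ΔN line. One parental library lay within the range of the wild-type libraries and the other within that of the ΔN libraries. The difference between the derived lines was -0.64 on the log2 scale, with an adjusted p of 0.0623. Without the first parental library, the log2 fold change of the ΔN line was 0.69 with an adjusted p of 0.0177, and that between the derived lines passed with 0.0075. The latter also passed without the second parental library (adjusted p of 0.00694). *Sycp3* lies wholly within *Chpt1* on the opposite strand, and reads of both genes cannot be told apart without strand. *Chpt1* was at 5.32 to 7.24 CPM over the 6 libraries, with log2 fold changes of 0.05 and -0.10 in the wild-type and ΔN lines.

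*Hormad1* (ENSMUSG00000028109.14, chr3:95559677-95587671) was at 2.06 and 0.651 CPM in parental ESCs, 2.33 and 1.76 CPM in the wild-type line and 0.602 and 1.43 CPM in the ΔN line. Here the parental libraries differed more than the lines did. The log2 fold change with the wild-type protein was 0.43 (95% interval -0.25 to 1.11, adjusted p of 0.319). It was 0.88 with an adjusted p of 0.0153 without the first parental library and -0.02 without the second, so no direction can be given. Between the derived lines the difference of 0.62 had an adjusted p of 0.175. It passed when the first or the second parental library was left out (adjusted p of 0.0304 and 0.0284). The processed pseudogene *Gm15529* on chromosome 6 shares 166 of 1286 windows of 100 bases (12.9%) with the *Hormad1* transcript and was at 0 to 0.110 CPM.

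*Slc25a31* and *Tex101* encode proteins of male germ cells, an ADP/ATP carrier of the mitochondria and a surface protein. *Slc25a31* (ENSMUSG00000069041.8, chr3:40708855-40726096) was at 1.19 and 1.30 CPM in parental ESCs, 1.82 and 1.98 CPM in the wild-type line and 0.803 and 0.897 CPM in the ΔN line. The lines did not overlap, in the same order as for *Mael* and *Tuba3a*. Against parental ESCs neither the log2 fold change of 0.37 ± 0.17 in the wild-type line (adjusted p of 0.138) nor that of -0.28 in the ΔN line (adjusted p of 0.295) passed. The gene exceeded 1 CPM only in the parental and wild-type libraries. The derived lines differed by 0.65 ± 0.17 with an adjusted p of 0.0264, and this call too was lost whichever of the 4 derived libraries was left out (adjusted p of 0.118 to 0.162).

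*Tex101* (ENSMUSG00000062773.6, chr7:24668007-24676675) was the gene closest to silence and did not reach the filter. It had 6 and 8 reads in parental ESCs (0.310 and 0.434 CPM), 4 and 10 reads in the wild-type line (0.202 and 0.551 CPM), and 1 and 0 reads in the ΔN line (0.0502 and 0 CPM). The count of 0 allows up to 3 reads, or 0.159 CPM, by counting error alone. With no filter the adjusted p was 0.109 for the ΔN line against parental ESCs and 0.117 between the derived lines. Both ΔN libraries thus lay below all others, but no difference passed after adjustment, and the counts are low.

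**Figure D3:**
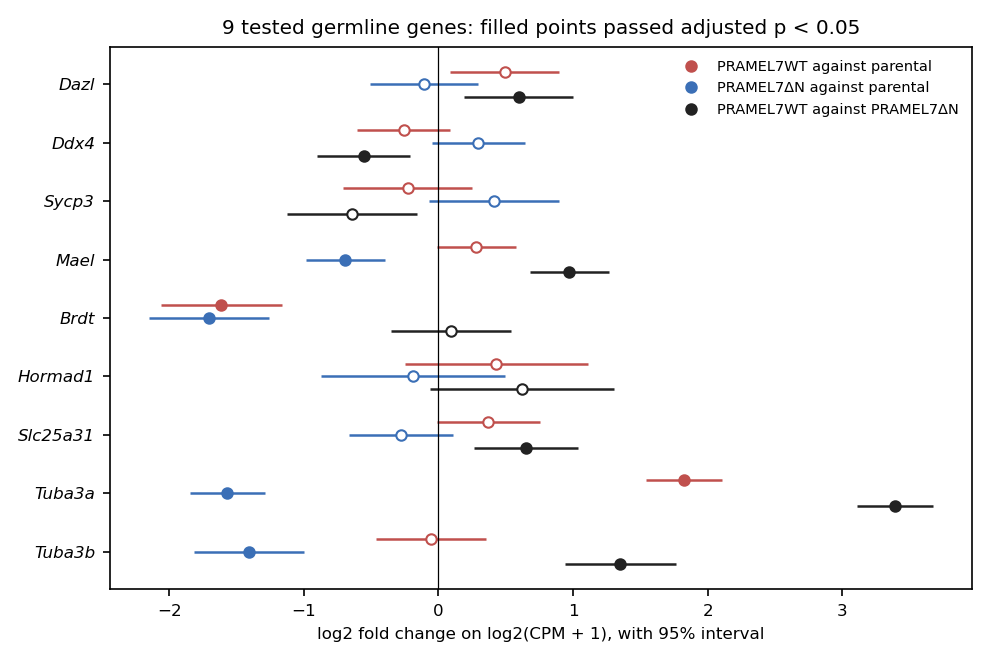
log2 fold change on log2(CPM + 1), with its 95% interval, of the 9 tested genes against parental ESCs, for ESC + H/F-PRAMEL7WT (red) and ESC + H/F-PRAMEL7ΔN (blue), and between the derived lines (black). Filled points passed an adjusted p under 0.05. *Tuba3a* has points on both sides of 0, *Brdt* lies near -1.6 and -1.7 in both lines, and the open points are the genes that did not pass.

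Other germline genes were followed in 5 lists that share no gene with the class, covering piRNA and nuage proteins, the synaptonemal complex and meiotic cohesin, meiotic recombination, regulators with RNA-binding proteins, and spermatid and sperm proteins. Of their 77 genes, 76 were in the table and 45 were tested. Most calls were downward. In the wild-type line, 5 were called higher, 16 lower (16.3% over all tested genes) and 24 neither, with a median log2 fold change of -0.41 against -0.08 over all tested genes. In the ΔN line, 21 were called lower (13.6% over all) and 24 were not called, with a median of -0.50 against -0.06. None was called higher by limma in the ΔN line, and 1 was at an unadjusted p under 0.05, with 0 calls by voom. Between the derived lines 12 were higher in the wild-type line and 4 lower, against 10.9% and 9.44% over all tested genes. Over the alternative settings the wild-type line had 3 to 7 calls upward and 6 to 18 downward, and the ΔN line 0 to 1 and 13 to 24. Of the 45 genes, 7 lie on chromosome 11, whose tested genes had medians of -0.36 in the wild-type and -0.33 in the ΔN line. Those 7 made up 5 of the 16 and 6 of the 21 downward calls. Over all tested genes of chromosome 11, 45.8% were called lower in the wild-type line and 39.3% in the ΔN line. On chromosomes other than 6 and 11, 5 of 36 genes were called higher and 11 lower in the wild-type line. In the ΔN line 15 of these 36 were called lower. Over all tested genes of each of those chromosomes, 5.24% to 12.1% were called higher and 8.87% to 23.8% lower in the wild-type line. For the ΔN line 7.51% to 24.3% were called lower.

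By list, the piRNA and nuage proteins had 2 of 12 tested genes higher and 3 lower in the wild-type line, and 5 lower in the ΔN line. The synaptonemal complex and meiotic cohesin had 1 of 8 higher and 3 lower in the wild-type line, and 3 lower in the ΔN line. Of the meiotic recombination genes, 3 of 8 were lower in each line. Regulators and RNA-binding proteins had 2 of 16 higher and 6 lower in the wild-type line, and 9 lower in the ΔN line. Of the 15 spermatid and sperm genes, 14 never exceeded 1 CPM and 4 were at 0 in every library, and the single gene tested was lower in both lines. Over all tested genes 8.71% were called higher and 16.3% lower in the wild-type line, and 13.6% lower in the ΔN line.

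*Sohlh2*, a transcription factor of early oocytes and spermatogonia, resembled *Tuba3a*. It was at 104 and 108 CPM in parental ESCs, 179 and 166 CPM in the wild-type line and 21.7 and 23.2 CPM in the ΔN line. The lines did not overlap, and it rose by 0.69 on the log2 scale in the wild-type line (adjusted p of 0.00157) and fell by 2.20 in the ΔN line (adjusted p of 1.94e-06). *Fkbp6*, a co-chaperone of the piRNA pathway, was at 0.929 and 0.651 CPM, at 4.86 and 5.01 CPM and at 0.100 and 0.0528 CPM in the same order of lines. The ΔN values rest on 2 and 1 reads. The log2 fold changes were 1.73 in the wild-type line and -0.73 in the ΔN line, and the call in the ΔN line was lost with either of its libraries left out (adjusted p of 0.0933 and 0.109). *Fkbp6* exceeded 1 CPM in the wild-type libraries alone and was tested only through them, so a difference was built into its presence among the tested genes.

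*Rpl10l*, a ribosomal protein paralog of the testis, was at 31.6 and 40.0 CPM in parental ESCs, 76.4 and 82.1 CPM in the wild-type line and 21.3 and 23.3 CPM in the ΔN line. It rose by 1.13 (adjusted p of 9.48e-04) and fell by 0.65 (adjusted p of 0.00719) on the log2 scale, the latter lost without the first ΔN library (adjusted p of 0.0759). *Rpl10l* is a near copy of a highly expressed ribosomal gene, so its reads are uncertain. *Mov10l1*, a helicase needed for piRNA formation, was at 6.66 and 6.13, 10.1 and 10.0, and 4.97 and 6.07 CPM. It rose by 0.58 in the wild-type line (adjusted p of 0.0220), a call lost with either wild-type library left out (adjusted p of 0.136 and 0.126).

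Other germline genes fell in both lines. *Meioc*, which keeps germ cells in meiotic prophase, was at 20.2 and 22 CPM in parental ESCs, 2.89 and 2.59 CPM in the wild-type line and 4.77 and 4.70 CPM in the ΔN line, with log2 fold changes of -2.56 (adjusted p of 2.90e-05) and -1.94 (5.25e-05). *Tex19.2* was at 8.31 and 7.76, 3.04 and 3.42, and 1.05 and 1.37 CPM, with log2 fold changes of -1.10 and -2.03 (adjusted p of 0.00252 and 9.38e-05). Both genes lie on chromosome 11. The tudor protein gene *Tdrkh* was at 5.16 and 7.59, 2.08 and 1.16, and 2.11 and 1.74 CPM, lower than in parental ESCs by 1.5 and 1.32 on the log2 scale (adjusted p of 0.00265 and 0.0043).

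Among genes of the meiotic chromosome, the cohesin subunit *Rec8* was at 28.8 and 40.1 CPM in parental ESCs, 11.4 and 13.2 CPM in the wild-type line and 18.1 and 16.3 CPM in the ΔN line, and fell by 1.4 and 0.95 on the log2 scale (adjusted p of 0.00104 and 0.00419). The cohesin subunit *Stag3* was at 63.7 and 92.5, 34.5 and 34.1, and 60.3 and 59.3 CPM. It fell by 1.14 in the wild-type line (adjusted p of 0.00157), whereas the log2 fold change of -0.36 in the ΔN line had an adjusted p of 0.134, which became 2.08e-04 without the first parental library. *Rec114*, a partner of the enzyme that makes meiotic breaks, was at 6.55 and 8.73, 4.302 and 4.68, and 0.703 and 1.16 CPM. It fell by 2.16 in the ΔN line (adjusted p of 1.54e-04). In the wild-type line it fell by 0.64 (adjusted p of 0.0377). That call was lost without the second parental library (log2 fold change -0.46) and without either wild-type library (-0.59 and -0.69). It was also lost with a pseudocount of 0.1, no filter, RPKM and median-ratio scaling (adjusted p of 0.0744, 0.145, 0.0523 and 0.0560). The cohesin gene *Smc1b* was at 12.95 and 20.06, 8.05 and 11.9, and 2.56 and 4.91 CPM. It fell by 1.90 in the ΔN line (adjusted p of 0.002), whereas the log2 fold change of -0.67 in the wild-type line had an adjusted p of 0.107. The wild-type value passed with the replicate block (adjusted p of 0.0193) and was -0.96 without the first parental library.

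**Figure D4:**
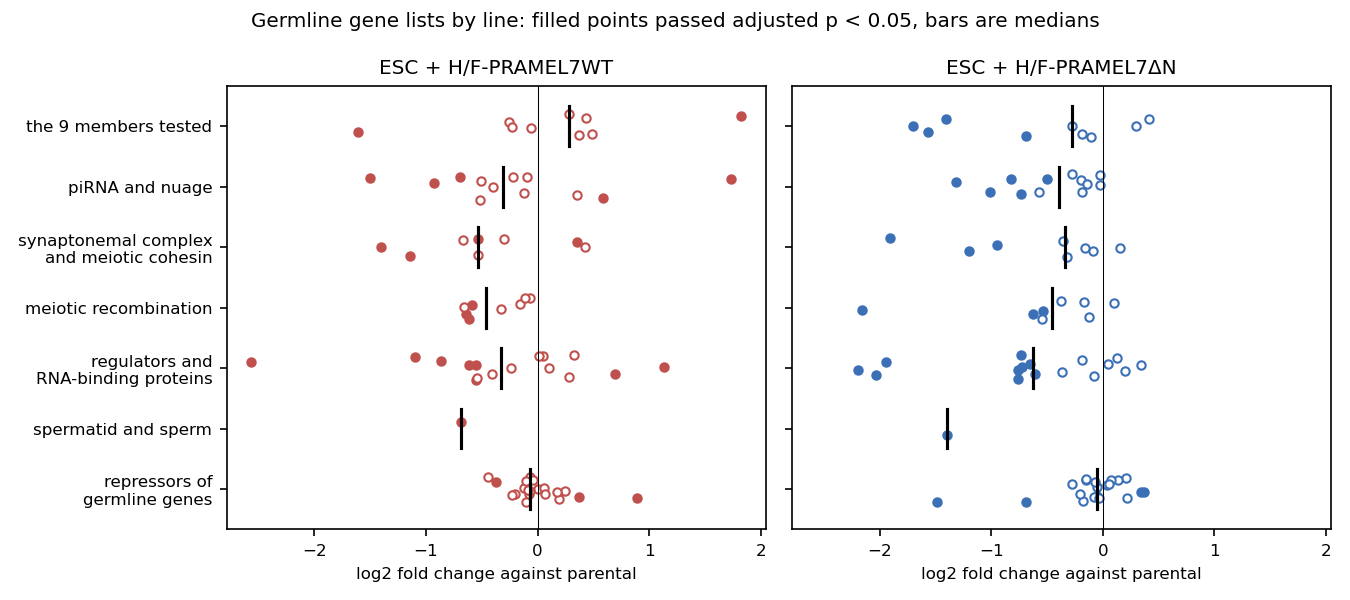
log2 fold change against parental ESCs (horizontal axis, the same in both panels) of the 9 tested genes of the class, of 5 germline gene lists and of 20 repressors of germline genes, in ESC + H/F-PRAMEL7WT (left) and ESC + H/F-PRAMEL7ΔN (right). Each point is a gene, filled where the adjusted p was under 0.05, bars are medians and vertical scatter has no meaning. In the ΔN line every filled point of the germline lists lies left of 0.

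Repressors of the class were read in the same way. All 20 genes on that list were tested, with 2 calls upward and 1 downward in the wild-type line, and 2 upward and 2 downward in the ΔN line, against 25% and 19.9% of all tested genes called in either direction. The list had medians of -0.07 and -0.05. *Uhrf1* was at 531 and 573 CPM in parental ESCs, 709 and 716 CPM in the wild-type line and 721 and 709 CPM in the ΔN line. It rose by 0.37 on the log2 scale in each line (adjusted p of 0.0115 and 0.0118), and each call was lost with either library of the derived line left out (adjusted p of 0.0987 and 0.105 in the wild-type line, 0.0937 and 0.0730 in the ΔN line). These values concern RNA and say nothing of the protein. *Dnmt1* was at 449 and 536, 496 and 486, and 488 and 459.9 CPM, with log2 fold changes of 0.00 and -0.05, and -0.13 in the wild-type line without the first parental library.

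*Dnmt3b*, a methyltransferase gene for new methylation, was at 152 and 124 CPM in parental ESCs, 260 and 250 CPM in the wild-type line and 117 and 109 CPM in the ΔN line. It rose by 0.89 in the wild-type line (adjusted p of 0.00115). *Dnmt3a* and *Yaf2*, named after their values were seen, were those that fell in the ΔN line, by 1.48 (adjusted p of 1.92e-05) and 0.69 (adjusted p of 0.0135).

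Of the Polycomb complex at these promoters, *Mga* was at 157 and 152, 117 and 122, and 162 and 178 CPM. It fell by 0.37 on the log2 scale in the wild-type line (adjusted p of 0.0144), and with the first or the second wild-type library left out the adjusted p was 0.136 and 0.0963. *E2f6* was at 27.4 and 20.8, 16.1 and 18.6, and 25.3 and 30.4 CPM, with log2 fold changes of -0.44 (adjusted p of 0.0662, and 0.00312 without the second parental library) and 0.21 (adjusted p of 0.400, and 0.0445 without the first). *L3mbtl2* at 171 to 196 CPM and *Pcgf6* at 56.3 to 74.8 CPM over the 6 libraries differed from parental ESCs by no more than 0.18 on the log2 scale. *Pcgf6* in the ΔN line had an adjusted p of 0.338, and 0.0338 without the second parental library. *Rybp*, on chromosome 6, was at 53.5 and 60.6, 49.1 and 49.4, and 76.1 and 69.2 CPM and rose by 0.34 in the ΔN line (adjusted p of 0.0417). That call was lost when any single library other than the second parental one was left out (adjusted p of 0.0672 to 0.261).

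Markers of the cell types that the cultures could hold were read beside these results. Their counts stand against 8.71% of all tested genes called higher and 16.3% lower in the wild-type line. For the ΔN line these shares were 6.25% higher and 13.6% lower. All 8 ESC markers were present, at 165 to 1691 CPM, and 4 were called lower in the wild-type line. In the ΔN line 1 of them was called higher and 7 were not called. The 8 markers of 2-cell-like cells were all under 1 CPM, with 5 at 0 in every library and summed levels of 0 to 0.152 CPM. Primitive endoderm markers summed to 6.95 and 9.29 CPM in parental ESCs. The sums were 10.96 and 11.9 in the wild-type line and 9.19 and 9.99 in the ΔN line. Of the 4 tested, 2 were called higher and 1 lower in the wild-type line, and 1 higher and 1 lower in the ΔN line. Markers of primordial germ cells summed to 455 and 570 CPM in parental ESCs, 358 and 347 in the wild-type line and 300 and 295 in the ΔN line. Of these 8 genes, 3 were called lower and 5 were not called in each line. Most of the sum was *Kit*, named after its values were seen. It was at 286 and 366 CPM in parental ESCs, 190 and 181 in the wild-type line and 173 and 171 in the ΔN line. The lower sums in both derived lines thus mostly follow this gene. The part of these markers in the values above was not tested. All 8 exceeded 1 CPM in enough libraries to be tested.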

How the data were processed

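RNA-seq of 6 libraries was used, and 6 ChIP samples were not analysed here. The authors sequenced polyadenylated RNA single end, with a kit that does not mark strand. They deposited RPKM per gene. The methods name SortMeRNA, Trimmomatic, STAR and an exon-coverage pipeline on mm10, whereas the submitters' processing notes name Bowtie2 2.3.4.3 and Subread 1.4.6-p4. The annotation and the use of strand in counting are not given in the sources used here. The methods give triplicates, and the table held 2 libraries per line. Nothing says that they came from separate clones, so p-values measure the spread between these libraries.

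The deposited RPKM divides by the whole gene span: multiplied by the span of GENCODE vM21 (GRCm38), 98.1 to 98.4% of values up to 20 reads were within 0.1 of whole reads, against 43.7 to 45.9% with exon length. Of 50978 rows, 176 with repeated or date-like names, 2796 without a match and 66 with several matches were left out. The remaining 47940 were converted to CPM with 1 constant for all libraries, which keeps the authors' scaling. The test, limma 3.58.1 in R 4.3.3, was run over the 12914 genes that exceeded 1 CPM in 2 or more libraries, on log2(CPM + 1), with a mean-variance trend. This filter and scale replaced RPKM above 1, a filter that was not run. RPKM without conversion was run as an alternative on the same 12914 genes, with 0.1 added before the logarithm. The fit was tested on simulated data. Alternatives were pseudocounts of 0.1 and 5, no filter, RPKM without conversion, voom on whole reads, median-ratio scaling, no trend, only the compared lines, a limit of 0.58 on the log2 fold change, a replicate block and leaving out each library. The crossed block, the medians of chromosomes and windows, the sum of the tubulins and the counts off chromosomes 6 and 11 were added after seeing the data. Counting limits cover counting error only.

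The 10 genes, the lists and the tests were chosen with earlier results of these data known. Named besides them are *Pramel7*, 6 repressors (*Dnmt1*, *Uhrf1*, *E2f6*, *Mga*, *L3mbtl2*, *Pcgf6*) and, per derived line and direction, up to 5 list genes with the largest change among those that passed with the libraries of that line both above or both below the parental pair. The authors' own comparisons (mean, log2 fold change with its error, test statistic, p) were not used. Figures used python 3.11.15, pandas 2.3.3 and matplotlib 3.10.9.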

Additional observations from a re-analysis of the deposited data

Results flagged for a closer look

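For 6 of the 9 tested genes the derived lines differed by the direct test, against 20.4% of all tested genes. The differences in log2 fold change, ESC + H/F-PRAMEL7WT minus ESC + H/F-PRAMEL7ΔN, were 3.39 for *Tuba3a*, 1.35 for *Tuba3b*, 0.97 for *Mael*, 0.65 for *Slc25a31*, 0.60 for *Dazl* and -0.56 for *Ddx4*. In *Tuba3a* the 2 lines lay on opposite sides of the parental libraries, and in *Tuba3b* the ΔN line alone differed from them by the test. In *Dazl*, *Ddx4* and *Slc25a31* neither line differed from parental ESCs by the test, and each of these 3 calls was lost whichever of the 4 derived libraries was left out. *Slc25a31* and *Tuba3b* passed the filter only through the parental and wild-type libraries. *Tuba3a* and *Tuba3b* lie on chromosome 6, where the other tested genes had a median of -0.40 between the derived lines. *Pramel7* RNA was 8.51 times higher in the ΔN line, and both derived lines came from single-cell clones. The form of the protein, its level and a property of the clone cannot be told apart in these differences.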

How the results depend on the processing

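The calls of *Tuba3a* in all 3 comparisons, of *Tuba3b* in the ΔN line and between the derived lines, of *Brdt* against parental ESCs and of *Mael* between the derived lines held under every alternative run. With 2 libraries per line, leaving out a library leaves a line with a single one, which is then assumed to vary like the others. The replicate numbers did not pair the libraries, since deviations of same-numbered libraries correlated at 0.207 (parental and wild-type), -0.249 (parental and ΔN) and -0.103 (wild-type and ΔN). With the replicate block, *Dazl* and *Ddx4* lost the call between the derived lines (adjusted p of 0.0558 and 0.0523), which left 0 genes lower in that comparison, and no other call of the 9 genes changed. With the crossed block the counts were 2 higher in the wild-type line and 2 lower between the derived lines.

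Among the 9 genes, calls upward in the wild-type line were 1 and became 2 with RPKM, without trend and with median-ratio scaling (*Slc25a31* in the first pair, adjusted p of 0.0242 and 0.0443, and *Dazl* in the last, 0.0406), and 1 to 2 with a library left out. In the ΔN line 0 calls upward became 0 to 1 with a library left out. Between the derived lines 5 calls upward became 3 with no filter and 3 to 6 with a library left out. The single call downward became 0 with no filter and with the fold limit, 2 with only the compared lines, and 0 to 2 with a library left out.

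With median-ratio scaling the sign turned in the wild-type line for *Tuba3b* (0.0134), in the ΔN line for *Dnmt1* (0.0343) and *L3mbtl2* (0.0102), and between the derived lines for *Uhrf1* (0.0104). With a library left out, values in the wild-type line ranged from -0.51 to 0.049 for *Sycp3*, -0.0151 to 0.88 for *Hormad1*, -0.12 to 0.0039 for *Tuba3b*, -0.13 to 0.13 for *Dnmt1* and -0.27 to 0.0276 for *Pcgf6*. In the ΔN line they ranged from -0.30 to 0.0845 for *Dazl*, -0.64 to 0.26 for *Hormad1* and -0.18 to 0.0786 for *Dnmt1*. Between the derived lines they ranged from -0.0528 to 0.24 for *Brdt*, -0.0232 to 0.13 for *Pcgf6*, -0.44 to 0.0752 for *Tdrkh* and -0.0171 to 0.0081 for *Uhrf1*. None of these genes had passed in these comparisons as reported, and of the values given here that of *Hormad1* at 0.88 passed. For the 9 genes, 440 of the values recomputed kept direction and call, 21 lost the call, 16 gained one and 9 changed sign.

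Over all tested genes, the wild-type line had 1125 calls upward and 2109 downward, the ΔN line 807 and 1759, and the derived lines 1409 and 1219 between them. Voom gave 1109 and 2031, 811 and 1740, and 1392 and 1165. Median-ratio scaling, which moved the median of all genes from -0.08 to 0.01 and from -0.06 to 0.02, gave 1752 and 1451 in the wild-type line and 1166 and 1336 in the ΔN line. No filter gave 621 and 1275, 497 and 1198, and 812 and 615. RPKM gave 1400 downward in the wild-type line, and 902 and 719 between the derived lines. The fold limit gave 526 and 1086, 370 and 1086, and 856 and 609, and with an unadjusted p 600 and 1163, 406 and 1184, and 928 and 677. Only the compared lines gave 518 upward in the ΔN line and 2331 and 2316 between the derived lines. Leaving out a library gave 216 to 1706 and 447 to 2796, 217 to 1505 and 621 to 2777, and 388 to 2332 and 307 to 2316, with the fewest without a derived library and the most without a parental one. The cause of these changes was not tested. Depth limits *Tex101*, *Brdt* and *Tuba3b*, which had at most 10 reads per library in a derived line.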
